A study of Orestias ascotanensis with 42 samples.

Results

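Skin and muscle taken from the same fish were compared in 28 of the 42 poly-A RNA libraries of the Andean killifish Orestias ascotanensis, collected at 3740 m on the Salar de Ascotán. All 14 skin and 14 muscle libraries were used and joined by season and individual number, so that each of 14 fish gave 1 pair. The fish were wild and were killed with an overdose of the anaesthetic tricaine (MS-222): 7 were netted in winter (July 2019) and 7 in summer (January 2020). Each season is thus 1 collection in 1 year, and season, year and collection cannot be told apart. The labels give neither sex, age, body region of the skin nor type of muscle. The 14 gill libraries of the same fish served only as a further tissue for reference.

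Fish skin is a living epithelium of keratinocytes and mucous cells over a dermis that holds scales, collagen and pigment cells, and it lies directly on the muscle of the trunk. Skeletal muscle consists mainly of large fibres that devote most of their messenger RNA to a small number of contractile and energy-supplying proteins. In bulk samples of this kind, a lower share of a cell type and less RNA per cell cannot be told apart. The table names genes by identifier only and pairs none with a gene name, so lists of muscle and skin marker genes could not be matched, the tissue labels could not be checked against defining markers, and no gene is given a function here.

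The depth of the 28 libraries ranged from 6074371 counts in muscle summer 4 to 154396513, with a median of 69699291 and a second-lowest total of 28009075. Skin summer 3, skin summer 4 and muscle summer 4 stood apart from their tissue, with median correlations to its other libraries of 0.828, 0.795 and 0.876. Skin winter 2, 6 and 7 were near-identical to each other, as were muscle summer 3, 5, 6 and 7, with a robust spread of the log2 count ratio (median absolute deviation) of 0.0900 to 0.144. They were kept as separate samples because the labels name separate fish, and several results are also given with 1 fish kept for each such set, which leaves 9 fish. Left out are then summer fish 5, 6 and 7 and winter fish 6 and 7, while summer fish 3 and 4, whose libraries stood apart, are kept.

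The first comparison asked how the counts of each tissue were divided among genes. Muscle libraries were dominated by few genes and skin libraries were not. The 10 most abundant genes of a library held 42.2% ± 3.93 of counts in muscle (SD, n = 14), with a lowest value of 35.8%, a median of 41.4% and a highest of 50.7%. In skin they held 16.7% ± 4.21, from 11.7% over a median of 15.9% to 28.1%. The groups did not overlap, and the share was higher in muscle in 14 of 14 fish (two-sided exact permutation by sign flips, adjusted p = 0.0001221, the smallest value that 14 pairs allow). The number of genes that together held 50% of the counts was 15.9 ± 3.97 in muscle, from 10 to 26, and 359 ± 140 in skin, from 84 to 641. It was higher in skin in 14 of 14 fish (exact permutation, adjusted p = 0.0001221). Genes at 1 CPM (counts scaled to library size, per 1e6) or more numbered 15698 ± 325 in skin and 13790 ± 860 in muscle, again higher in skin in 14 of 14 fish with the same adjusted p over 4 measures. By library totals, counts held by the most abundant genes lower the CPM of all others. This number is therefore not independent of the first measure and does not by itself show fewer genes expressed in muscle. In the 9 fish left with 1 per near-identical set, these 3 measures kept their direction (exact permutation p = 0.003906 for each, the smallest value that 9 pairs allow).

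**Figure D1:**
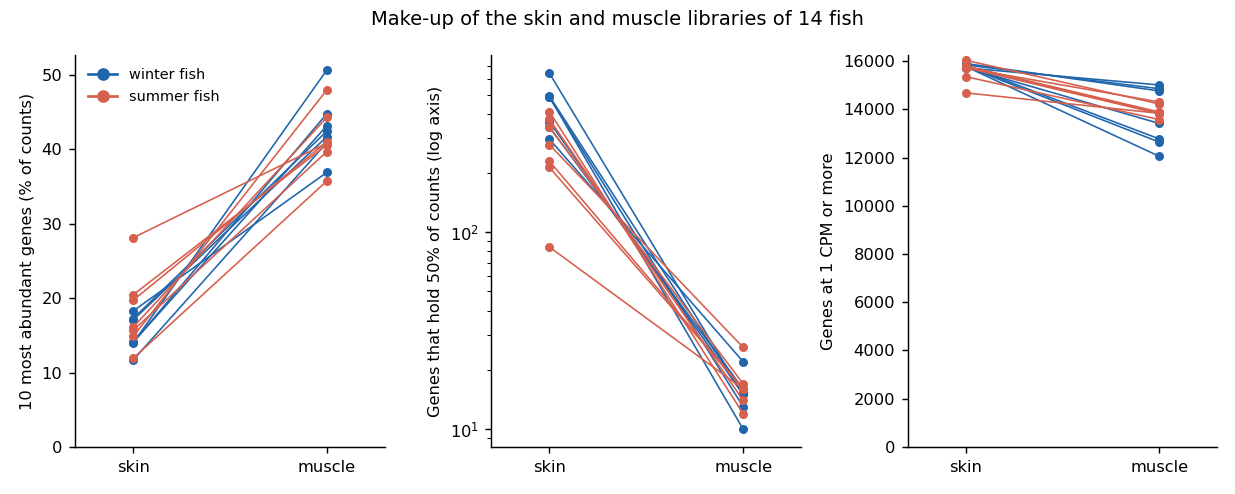
Share of counts in the 10 most abundant genes, number of genes that hold 50% of counts (log axis) and number of genes at 1 CPM or more, with 1 line joining the skin and muscle library of each fish, blue for winter and red for summer. All 14 lines run the same way in each panel, and the lowest skin value in the middle panel, 84 genes, belongs to skin summer 3.

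The most abundant transcripts were largely the same in the libraries of both tissues. Of the 10 genes with the highest mean share of muscle counts, 7 were also among the 10 highest of skin and all 10 were among its first 19. These muscle genes held 41.5% ± 3.96 of muscle counts and 13.7% ± 5.07 of skin counts (SD, n = 14), and in skin their share ran from 6.96% to 26.7%. Of the 10 most abundant genes of skin, 8 were higher in muscle and 2 higher in skin in the test described next. The leading gene of muscle took 7.74% ± 1.83 of muscle counts and 2.36% ± 1.13 of skin counts, which put it at position 3 in skin. These sets were picked from the same libraries and their shares are a description. The part of muscle carried along with the skin in these shares was not tested.

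Next, every gene that passed a filter on low counts was compared between skin and muscle with the fish as a block, in edgeR's quasi-likelihood test with TMM scaling, which lines the libraries up on their bulk of genes. Of 18054 genes tested, out of 20807 with a count in these libraries, 12069 or 66.8% passed an adjusted p of 0.05. Skin was higher for 6371 (35.3%) and muscle for 5698 (31.6%). The median absolute log2 fold change of these genes was 1.17, and 4996 of them differed by less than 2-fold. At least 4-fold differences (a log2 fold change of 2) were found for 1729 genes higher in skin (9.58%) and 1136 higher in muscle (6.29%). At 16-fold the numbers were 347 and 184, and at 64-fold 27 and 48. A test against a 4-fold difference itself (edgeR's glmTreat) called 991 genes for skin and 592 for muscle.

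**Figure D2:**
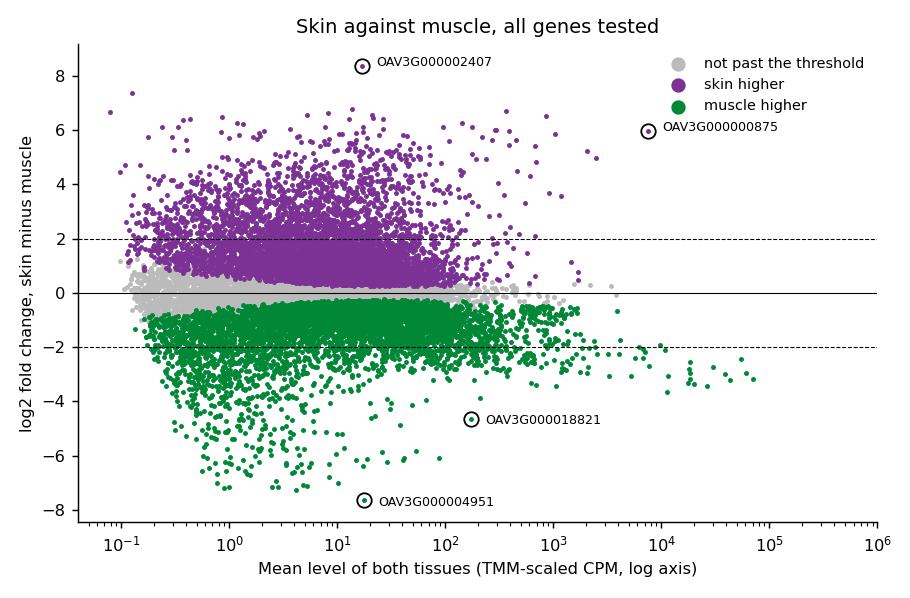
Log2 fold change of skin minus muscle against the mean level of both tissues (TMM-scaled CPM, log axis) for the 18054 genes tested, with purple for skin higher, green for muscle higher and grey for genes not past the threshold; dashed lines mark 4-fold and circles the 4 genes described by identifier. At the highest levels, to the right of OAV3G000000875, the plotted genes lie on the muscle side, while the differences higher in skin spread over low and middle levels.

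How the libraries are scaled decides where the line between the tissues falls. Scaled by library totals alone, which sets each gene against the abundant muscle genes, the median log2 fold change of all genes was 1.36 rather than 0.07. Then 13868 genes were called higher in skin and 1381 higher in muscle, or 90.9% of calls for skin against 52.8% with TMM. Upper quartile scaling put 49.3% of calls in skin and TMM over genes that are not muscle-type 48.1%. Directions below are relative to the bulk of genes. The muscle side depended most on this: at least 4-fold higher in muscle were 312 genes by library totals against 1136 with TMM, while on the skin side the number was 5019 against 1729.

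The fish showed the same direction for most of the larger differences. Of the 1729 genes at least 4-fold higher in skin, 1423 (82.3%) were higher in skin in each of the 14 fish, and of the 1136 higher in muscle 766 (67.4%) were higher in muscle in each. No such gene had its direction in fewer than 10 fish. Over all genes tested, 30.6% lay in 1 direction in all 14 fish. The larger differences were chosen in a fit over these same fish, which favours a shared direction. Their shares are therefore a description.

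A rule that asked for the same direction in all 14 fish and then took the largest fold or the highest level gave the genes named next, so their size and shared direction follow from the choice and are a description. OAV3G000002407 had the largest fold among genes of at least 32 CPM in skin. Its level in skin was 17.9 CPM in the lowest library, 33.8 in the median and 59.3 in the highest. In muscle it was 0, 0.0408 and 0.758 CPM. The tissues did not overlap, and 5 muscle libraries held no count, where 3 counts would correspond to 0.0520 to 0.566 CPM. The means were 33.8 ± 13.1 and 0.132 ± 0.225 CPM (SD, n = 14). On the log2 scale skin exceeded muscle by 8.37 ± 0.50 (SE, adjusted p = 4.82e-11 in edgeR), with skin higher in 14 of 14 fish. In muscle the gene rested on 64 counts over all 14 libraries. It was also low in gills, at 0.133 ± 0.125 CPM.

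OAV3G000000875 was the most abundant gene at least 16-fold higher in skin, and the second gene of skin by share of counts against position 331 in muscle. It held 2.37% ± 0.850 of skin counts (SD, n = 14). Its skin level was 7473.5 CPM in the lowest library, 15602 in the median and 20574 in the highest. Muscle libraries held 37.2, 256 and 907 CPM, so the tissues were well apart. The 4 lowest muscle libraries were the near-identical ones, summer 3, 5, 6 and 7, at 37.2 to 79.6 CPM, while the other 10 lay between 138 and 907. The log2 fold change was 5.96 ± 0.43 (SE, adjusted p = 5.65e-10 in edgeR), with skin higher in 14 of 14 fish. Gills held 6254 ± 1005 CPM.

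In the opposite direction, OAV3G000004951 had the largest fold among genes of at least 32 CPM in muscle. Muscle levels were 3.92 CPM in the lowest library, 41.4 in the median and 68.5 in the highest. Skin libraries held 0, 0.182 and 0.442 CPM, with 1 library at no count (skin winter 1, where 3 counts are 0.0151 CPM). All muscle libraries lay above all skin libraries. The log2 fold change was -7.65 ± 0.57 (SE, adjusted p = 8.20e-10 in edgeR), with muscle higher in 14 of 14 fish. Muscle levels ran from 3.92 to 44.9 CPM in the winter fish and from 39.0 to 68.5 in the summer fish, and the near-identical summer libraries lay at 43.6 to 45.3. Gills held 0.310 ± 0.218 CPM (SD, n = 14).

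OAV3G000018821 was the most abundant gene at least 16-fold higher in muscle. Its muscle level was 54.8 CPM in the lowest library, 319 in the median and 572 in the highest. In skin it was 4.31, 13.7 and 21.9 CPM, again without overlap. The lowest muscle values, 54.8 and 104 CPM, belonged to winter fish 1 and 4, whose skin values of 4.72 and 6.42 CPM were among the lowest of skin. The log2 fold change was -4.63 ± 0.22 (SE, adjusted p = 4.97e-12 in edgeR), with muscle higher in 14 of 14 fish. Gills held 2.96 ± 0.825 CPM (SD, n = 14).

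**Figure D3:**
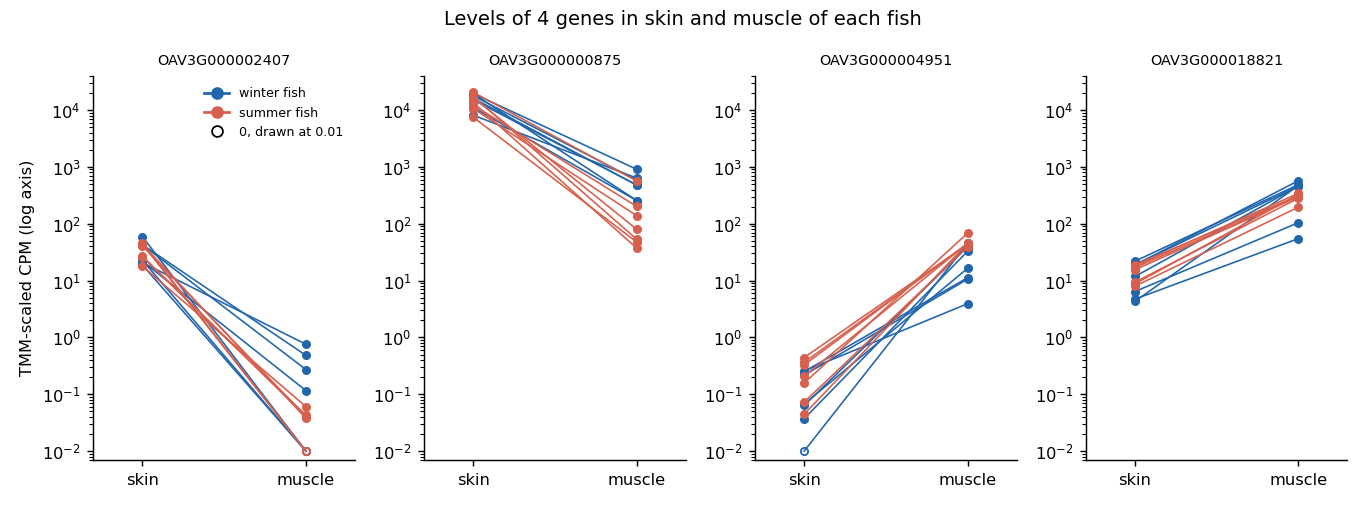
TMM-scaled CPM (log axis) of the 4 genes in skin and muscle, with 1 line per fish, blue for winter and red for summer; open points stand for libraries with no count and are drawn at 0.01. In each panel all 14 lines run the same way, which the choice of the genes required, and the tissues do not overlap.

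What remained specific to each tissue was counted with a demand on every fish: past the threshold and at least 4-fold apart, in the same direction, in each of the 14 pairs. This left 358 genes for skin (1.98% of those tested) and 143 for muscle (0.792%). The skin genes had a median level of 26.6 CPM in skin, and 54 of them reached 100 CPM. They held 9.19% ± 2.41 of skin counts (SD, n = 14), from 4.87% to 11.8%, and 0.160% ± 0.0751 of muscle counts. The muscle genes had a median level of 6.18 CPM, and 10 of them reached 100 CPM. They held 10.6% ± 2.28 of muscle counts and 3.17% ± 1.41 of skin counts, mostly through the leading gene of muscle, which is among them. By library totals all 358 skin genes met the same demand, but 35 of the 143 muscle genes did. This follows from the scaling, as the TMM factor was higher for skin than for muscle in every fish. Library totals thus raise every ratio of skin to muscle, and the skin set could only be kept. It does not show that the skin set is the firmer one. The muscle number was 232 without summer fish 3 and 4, whose libraries stood apart. With 1 fish per near-identical set the numbers were 370 for skin and 163 for muscle.

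Some of these genes were near-absent from the other tissue. Of the 358 skin genes, 26 averaged under 0.1 CPM in muscle, and of the 143 muscle genes, 54 averaged under 0.1 CPM in skin. At a limit of 0.5 CPM the numbers were 91 and 109. They were weakly expressed in their own tissue too, with medians of 1.75 and 2.55 CPM. The depth of muscle summer 4, where 3 counts are 0.566 CPM, limits what the demand on every fish can show at such levels. The muscle number was 84 without summer fish 4 and 92 without summer fish 3 and 4. A 16-fold difference in every fish was met by 20 skin genes and 23 muscle genes. A pair with no count in the lower tissue met this demand or the 4-fold one at any level in the higher tissue. The lowest of the 20 skin genes averaged 0.159 CPM in skin. At that level 16-fold could not be measured, as 3 counts in a muscle library were at least 0.0303 CPM. The 20 skin genes together held 1.095% ± 0.246 of skin counts, the 23 muscle genes 0.0271% ± 0.00907 of muscle counts (SD, n = 14).

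The gill libraries, which took no part in choosing these genes, placed the sets differently. Of the 358 skin genes, 299 (83.5%) had a mean level in gills that was within 4-fold of their skin level or above it, and for 142 of these it was at or above the skin level. Over all genes tested, taken against the higher of skin and muscle, the corresponding share was 82.6%, so the skin set lay near the background. Only 23 skin genes (6.42%) were more than 16-fold lower in gills, against 6.71% of all genes. Of the 143 muscle genes, 7 (4.90%) came within 4-fold of their muscle level in gills and 108 (75.5%) were more than 16-fold lower there.

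Skin pieces can carry muscle, and the labels do not say how the tissues were parted. Muscle-type genes were therefore chosen without the skin libraries, as the 995 genes (5.41% of 18397 tested) at least 16-fold higher in muscle than in gills. They took 68.4% ± 3.60 of muscle counts, 1.33% ± 0.473 of gill counts and 26.6% ± 6.94 of skin counts (SD, n = 14). In skin the lowest share was 18.4% in winter fish 3, the median 25.5% and the highest 44.0% in summer fish 3. The low share in gills follows from the choice of the genes and is no comparison with skin. Of these genes, 227 averaged at least 100 CPM in muscle. The muscle and gill libraries both enter this choice, so no count of calls among these genes is given.

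The abundant muscle-type genes were present in every skin library, at fractions of their muscle level that varied between genes. The median ratio of skin to muscle CPM, by library totals, was 0.533 ± 0.0871 (SD, n = 14 fish), from 0.346 in summer fish 4 to 0.694 in winter fish 4. In winter fish 1 the middle 50% of the genes lay between 0.404 and 0.613, in summer fish 4 between 0.193 and 0.568, and in summer fish 3, the widest by difference, between 0.324 and 0.975. In 15 of the 227 genes the ratio was above 1 in at least 7 of the fish. On the TMM scale the median ratio was 0.231 ± 0.0887. The median log2 fold change of these 227 genes was -2.23, with the middle 50% between -2.58 and -1.89, a sign that their choice from the same muscle libraries favours. A few genes stood far below the rest: the lowest ratio in a fish ran from 0.00245 in winter fish 1 to 0.135 in winter fish 2. In 0 of the 227 genes was the ratio under 0.05 in every fish. The part of carried muscle in these levels was not tested.

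**Figure D4:**
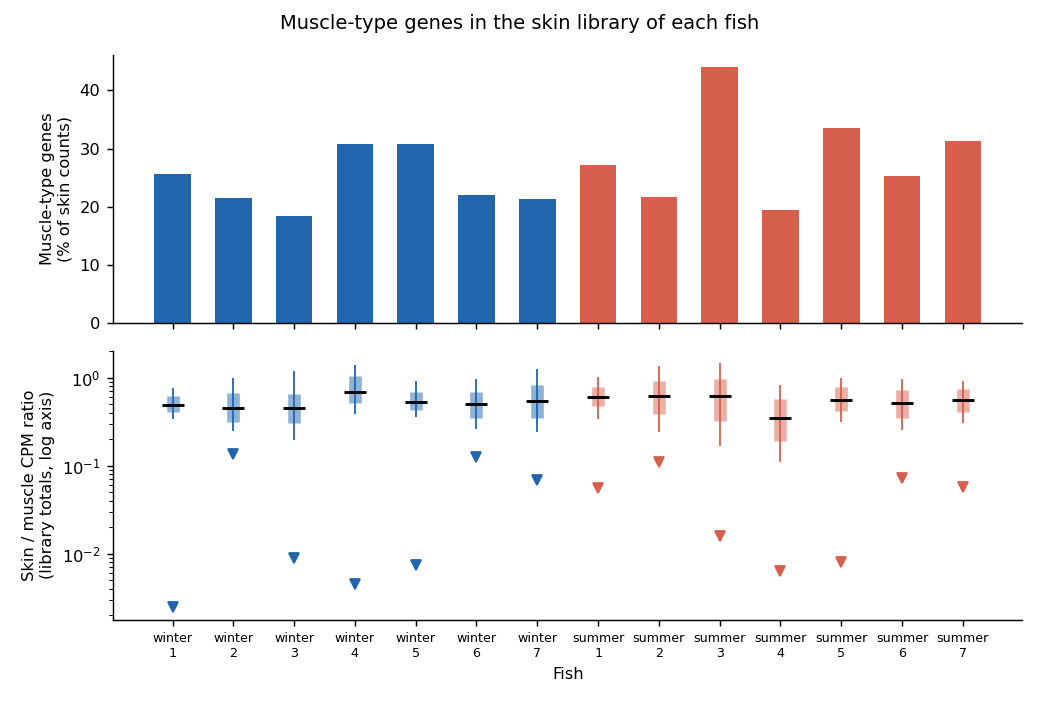
Upper panel: share of the counts of each skin library in muscle-type genes. Lower panel: ratio of skin to muscle CPM (library totals, log axis) over the 227 abundant muscle-type genes in each fish, with a black mark for the median, a thick bar for the middle 50%, a thin line from the 10th to the 90th percentile and a triangle for the lowest gene. Medians lie between 0.346 and 0.694, and the lowest genes reach down to 0.00245.

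A fraction of the muscle library was also subtracted, as arithmetic and not as a measure of the muscle carried. In each fish the muscle library was subtracted from the skin library at the 10th percentile of that ratio (0.111 to 0.385) or at its median. Values below 0 were set to 0. At the median this befell the abundant muscle-type genes with a ratio below it, so more was taken away than skin held of them. Of the 1729 genes at least 4-fold higher in skin, 1723 stayed so with the lower subtraction and 1715 with the higher, and 0 of the 6371 genes higher in skin turned to muscle. These counts follow largely from the arithmetic, since a gene much higher in skin loses little when a fraction of its muscle level is taken away. Genes past the threshold numbered 11817 and 10433 after the subtractions against 12069 before. Skin was higher for 6774 and 5712 of them. Of the 1136 genes at least 4-fold higher in muscle, 64 and 99 were no longer tested. The number at least 4-fold higher in skin became 2065 and 2133. The number at least 4-fold higher in muscle became 1755 and 2523, a change that the subtraction also makes by its construction. After it OAV3G000002407 had log2 fold changes of 8.78 and 9.17, and OAV3G000000875 of 6.21 and 6.31.

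Whether a larger muscle-type share in skin went with smaller differences was examined over the fish. Outside the muscle-type genes, 1558 to 6926 of 17066 genes were at least 4-fold apart within a fish, with a median of 2838. Over the 14 fish this number and the muscle-type share of the skin library had Pearson's r = -0.349 (permutation p = 0.201) and Spearman's rho = -0.530 (permutation p = 0.0549), which did not pass. Without the 2 fish farthest from the median share (summer 3 and 5), r was -0.673 (permutation p = 0.00572) and rho -0.825 (0.00149). In the 7 winter fish r was -0.865 and rho -0.893 (exact permutation p = 0.0177 and 0.0123), although 3 of their skin libraries are near-identical. With 1 fish per near-identical set, r over the 9 fish left was -0.273 and rho -0.433 (exact permutation p = 0.429 and 0.250). No separate value was computed for the winter fish among them. Summer fish 3 and 4, whose libraries stood apart, are among these 9. In the 7 summer fish r was -0.344 and rho -0.321 (exact permutation p = 0.406 and 0.498). The highest number, 6926, belonged to summer fish 4, whose muscle library is the shallowest and had 30.3% of all genes at 0. Without summer fish 3 and 4, r was -0.725 and rho -0.741 (permutation p = 0.00893 and 0.00779).

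The 2 seasons hold different fish, so the contrast could be read in each separately. Within a season the fish may not be independent, as some winter skin and some summer muscle libraries are near-identical. Among 17726 genes tested in both, 11234 (63.4%) passed in the winter fish and 8538 (48.2%) in the summer fish. Both called 7450 genes, which is 66.3% of the winter calls and 87.3% of the summer calls, and 7435 of these had the same direction against 15 with opposite directions. Of all genes tested in both, 84.8% had the same direction, and passing in both fits favours a shared one. Across genes, which are not independent replicates, the log2 fold changes correlated at r = 0.901.

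A test of the difference between the seasons itself, in 1 fit over all 14 fish (edgeR's quasi-likelihood test, fish as block), passed for 93 of 18054 genes (0.515%), 88 with a larger skin minus muscle value in summer and 5 with a smaller one. This number was 452 without summer fish 3 and 4, and 1 when a single fish was kept for each near-identical set. The latter run keeps summer fish 3 and 4. Effects of near-identical libraries, of libraries that stand apart and of fewer fish cannot be told apart in it. None of the 4 genes given by identifier was among the 93.

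Genes chosen in 1 season were then read in each fish of the other. The sets read held fewer genes than the season fits called at least 4-fold higher. Those fits called 1526 genes for skin and 1207 for muscle in winter, and 1771 and 1172 in summer. A median in the choosing fit is favoured by the choice. Medians within a fish are of log2 differences with a prior count, so the 2 kinds of median are not like for like. The 1516 genes at least 4-fold higher in the skin of winter fish had a median log2 fold change of 2.69 in that fit. In the 7 summer fish their median difference was 2.83 in the lowest fish, 3.06 in the median and 4.54 in summer fish 4. Between 94.0% and 99.8% of them were higher in skin in a given summer fish, where 49.0% to 58.4% of all genes were. The 1199 genes at least 4-fold higher in the muscle of winter fish had a median of -2.63 in that fit. In the summer fish their median difference ran from -2.74 to -1.99, and 77.1% of them were higher in muscle in summer fish 4 and 93.9% or more in each of the others, against 40.7% to 51.0% of all genes. The smallest median difference, -1.99, was also that of summer fish 4. In the reverse reading, 1766 genes at least 4-fold higher in summer skin had a median of 3.17 in that fit. Their medians in the winter fish ran from 1.77 over 2.34 in the median fish to 3.57. Between 92.9% and 99.2% of them were higher in skin in a given winter fish, against 49.9% to 54.1% of all genes. The 1129 genes of summer muscle had a median of -2.61 in that fit and medians of -2.78 to -2.26 in the winter fish. Of these, 93.1% to 98.7% were higher in muscle, against 45.8% to 50.1% of all genes.

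**Figure D5:**
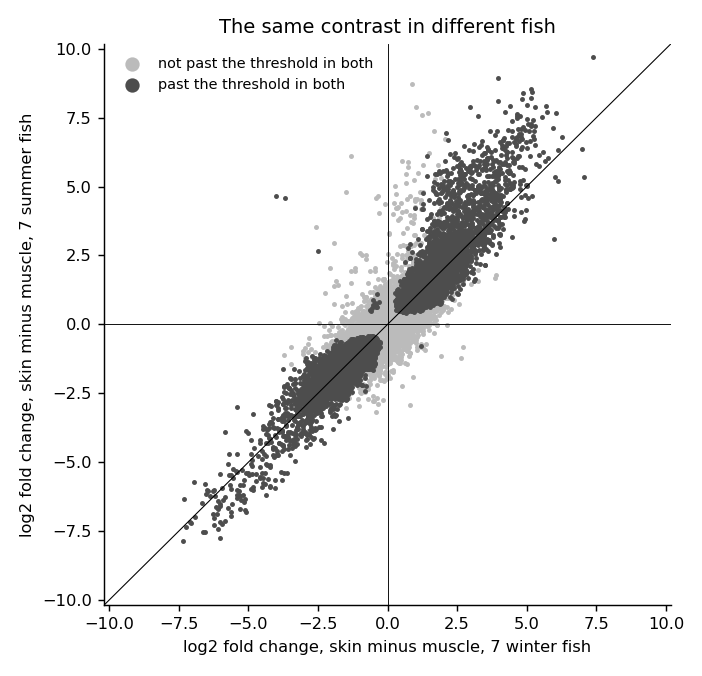
Log2 fold change of skin minus muscle in the 7 winter fish (x axis) against the 7 summer fish (y axis) for 17726 genes, dark where a gene passed in both; the diagonal marks equal values. Most dark points keep their side in both axes, 7435 of 7450, and on the skin side many lie above the diagonal. Of all genes plotted, 84.8% keep their side.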

How the data were processed

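Per the labels' protocols, the libraries were poly-A selected, unstranded and read from both ends at 150 bp. The values are raw counts that the authors deposited as a single table of 21024 genes by 42 libraries. Tools listed in the submitters' processing notes, without their roles, are HISAT2 2.2.1, SAMtools 1.10, Cufflinks, Trim Galore 0.6.6 and FastQC. For the counting program, genome build and annotation: not given in the sources used here. Of the counts from 1 to 10 in the 28 libraries, 75.5% were even, a pattern that counting each mate separately would give; counts may thus exceed the number of molecules. Without strand, overlapping genes cannot be told apart, and genes with near copies are uncertain. Limits from a count of 0 (3 counts) cover counting error only, and they are too low if each mate was counted separately.

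Groups and fish came from the sample titles. Titles were followed where the tag for season contradicts them (skin summer 7, muscle winter 4, gills summer 1 and gills winter 7). Skin and muscle of the same season and number come from the same fish, per the labels. After removal of group means, skin and muscle of a fish correlated at 0.151 on average (-0.161 to 0.522) and those of other fish of a season at -0.0163, and 5 of 14 skin libraries correlated best with their own fish. P-values of the paired tests measure the spread of the skin minus muscle differences over these fish. Where libraries are near-identical, these differences may not be independent, and their spread may then be understated.

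R 4.3.3 with edgeR 4.0.16 was used for the main test (filterByExpr, TMM, robust quasi-likelihood, fish as block, Benjamini-Hochberg, threshold 0.05, two-sided). limma 3.58.1 and DESeq2 1.42.0 were alternatives. SE is the log2 fold change divided by the root of F. Levels are CPM with the same TMM factors, and log2 differences within a fish used a prior count of 2. The 4-fold and 16-fold demands on every fish used the levels with no prior count. Libraries under a median correlation of 0.88 were said to stand apart, and pairs with a spread under 0.15 over genes of at least 1000 counts to be near-identical. Single values were compared by exact sign flips over 14 fish (16384 flips), correlations by 100000 permutations, or by all orders in 7 or 9 fish. Named genes had to pass the threshold in the same direction in 14 of 14 fish. In each direction the rule took the largest fold at 32 CPM or more and the highest mean at 16-fold or more, and because the files pair no names, 2 identifiers a direction. The main fit was run on simulated data with few changed genes, as many higher as lower in skin. Those data lack the difference in make-up between the tissues, so they do not test the scaling. The comparison, limits and lists were chosen with earlier results of these data known. Alternatives were other scalings, filters and tools, no block, both subtractions, leaving fish out, and others added after seeing the data.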

Additional observations from a re-analysis of the deposited data

Results flagged for a closer look

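In 40 groups of 7 values (levels of the named genes, library measures and values per fish), 7 values lay far from the rest of their group by Dixon's criterion. Chance gives about 1 in 20 groups where groups are independent, but these groups share libraries and some libraries appear more than once among the 7. Among the named genes these were muscle summer 2, at 563 CPM for OAV3G000000875 and 68.5 CPM for OAV3G000004951, and muscle summer 1, at 196 CPM for OAV3G000018821. Of the 7 summer muscle libraries, 4 are near-identical. In muscle summer 4, the shallowest library, 26 genes held 50% of the counts. Summer fish 4 had a median skin to muscle ratio of 0.346 over the abundant muscle-type genes and 6926 genes at least 4-fold apart. Winter fish 4, 1 of the fish with a season tag that differs from its title, had a median ratio of 0.694.

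The difference between skin and muscle itself differed between summer and winter for 93 of 18054 genes (0.515%) in edgeR with the fish as block, 88 of them with a larger skin minus muscle value in summer and 5 with a smaller one. Of all genes, 2380 had an unadjusted p under 0.05. None of the 4 genes named by identifier passed, with an adjusted p of 0.0926 for OAV3G000000875 and 0.317 to 0.873 for the others. The number was 452 without summer fish 3 and 4 and 1 with 1 fish kept for each near-identical set, a run that keeps summer fish 3 and 4.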

How the results depend on the processing

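Every count of genes past the threshold for either tissue stayed within 1.5 times its value under all alternatives run but library totals. Without the fish as a replicate block, 12013 genes passed against 12069. DESeq2 called 12778, limma voom 12513 (13940 with quality weights), and 1 fish per near-identical set 8965. By library totals, skin was higher for 13868 genes (5019 at least 4-fold) and muscle for 1381 (312). At least 4-fold higher in muscle were 687 genes with a filter of 1 CPM in 14 libraries, 1755 and 2523 with muscle subtracted, and 592 in glmTreat, which called 991 for skin. The demand on every fish gave 232 muscle genes without summer fish 3 and 4, of which 92 were near-absent from skin. A 16-fold demand gave 20 genes of skin and 23 of muscle, 4 and 13 of them near-absent from the other tissue. Near-absence under 0.05 CPM gave 14 and 28 genes, and under 0.5 CPM 91 and 109. By library totals, a demand added after seeing the data, 976 and 35 met 4-fold in every fish.

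Leaving out 1 fish at a time gave 11516 to 12646 genes past the threshold, 1625 to 1824 at least 4-fold higher in skin and 1016 to 1148 in muscle, and 354 to 410 and 137 to 190 genes specific in every fish, with 21 to 34 and 47 to 84 near-absent. The share relation passed without the farthest fish (r = -0.673), in winter fish (-0.865) and without fish 3 and 4 of summer (-0.725). It did not pass over all fish (-0.349), in summer fish (-0.344) or with 1 fish per near-identical set (-0.273). The season interaction counted 42 genes with no replicate block, 452 without those fish and 1 with 1 fish per set. The cause was not tested. The named genes kept direction and threshold in all alternatives, with log2 fold changes outside the subtractions of 7.37 to 9.71 for OAV3G000002407, 4.94 to 7.25 for OAV3G000000875, -8.58 to -6.45 for OAV3G000004951 and -4.88 to -3.36 for OAV3G000018821. Depth limits near-absent calls in muscle summer 4, where 3 counts are 0.566 CPM.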

Other observations

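The balance between the tissues changed with the level of a gene. Among the 349 genes with a mean over both tissues of at least 256 CPM, 89.4% passed the threshold, 95 (27.2%) were at least 4-fold higher in muscle and 27 (7.74%) at least 4-fold higher in skin. Among the 5867 genes between 4 and 16 CPM, 65.7% passed. Of these 5867, 578 (9.85%) were at least 4-fold higher in skin and 165 (2.81%) in muscle. Over all 18054 genes tested, 66.8% passed, 9.58% were at least 4-fold higher in skin and 6.29% in muscle. Between 4 and 16 CPM the passing share and the skin share thus lay near those of all genes. Below 1 CPM, 311 of 2424 genes were at least 4-fold higher in skin and 314 in muscle. Without the muscle-type genes, the number of genes that hold 50% of counts was 806 ± 195 in skin and 551 ± 185 in muscle (SD, n = 14), higher in skin in 11 of 14 fish (exact permutation p = 0.00269, a measure added after seeing the data). These values describe the deposited libraries. The numbers by level depend on the TMM scaling given above. The number of genes that hold 50% of counts is taken within a library, where scaling enters only through the choice of the muscle-type genes.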
